A study of Homo sapiens with 27 samples.

Results

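The 6 genes described here encode 3 receptors of the epidermal growth factor receptor family, EGFR, ERBB2 and ERBB3, and 3 proteins grouped with them as inhibitors of those receptors, ERRFI1, LRIG1 and LRIG3. They were taken by gene symbol. Each had 1 row in the deposited table, and the 6 stand among 36536 symbols or identifiers, of which 15575 had enough counts to be tested. All 6 were among the tested genes. The RNA came from MCF10A cells, a human line derived from non-cancerous breast epithelium, which had been maintained with horse serum, hydrocortisone, cholera toxin, insulin and EGF (epidermal growth factor, 20 ng/ml). Before treatment every culture spent 18 h in a medium without growth factors, and what else that medium contained is not given in the sources used here. Group T0 was collected at that point, at 0 h. In the other 8 groups RNA was collected after 24 h with phosphate-buffered saline (PBS, the vehicle), with EGF, with OSM (oncostatin M, which signals through gp130 and STAT factors), with transforming growth factor beta (TGFB), with each pair (EGF+OSM, EGF+TGFB, OSM+TGFB) or with EGF+OSM+TGFB, each ligand at 10 ng/ml. Each of the 9 groups had 3 libraries of polyadenylated RNA, 27 in all. The series asks how such signals combine, and EGF is the ligand among them that binds a member of the ERBB family directly.

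ERBB receptors are tyrosine kinases of the cell surface that signal as pairs. EGFR binds EGF and related ligands, ERBB3 binds neuregulins but has little kinase activity of its own, and ERBB2 binds no known ligand and serves as the preferred partner of the others. In breast epithelium these receptors drive proliferation and survival, and their signal is restrained by proteins that act on the receptors themselves: ERRFI1 (also called MIG6) binds and blocks the active EGFR kinase, LRIG1 is a membrane protein that promotes removal of ERBB receptors, and LRIG3 is its paralogue, whose role in receptor control is less settled.

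On GRCh38 (GENCODE v44) EGFR spans chr7:55019017-55211628 on the plus strand, ERBB2 chr17:39687914-39730426 on the plus strand and ERBB3 chr12:56076799-56103505 on the plus strand. ERRFI1 lies at chr1:8004404-8026309, LRIG1 at chr3:66378797-66501263 and LRIG3 at chr12:58872149-58920504, all on the minus strand. The spans include exons, introns and untranslated regions, and the counts are sums over whole genes, so no exon or isoform is resolved. The promoter windows of 250 bases just before the start of the canonical transcript were available from RefSeq (GRCh38.p14) for 4 of the 6, EGFR, ERRFI1, LRIG1 and LRIG3. The 3 shown are those of EGFR, higher in every ligand group than in PBS, of ERRFI1, lower in every group with EGF, and of LRIG3. All 3 had their highest group mean in OSM+TGFB. Capitals mark the core promoter motifs found in them.
EGFR, chr7:55018767-55019016, plus strand: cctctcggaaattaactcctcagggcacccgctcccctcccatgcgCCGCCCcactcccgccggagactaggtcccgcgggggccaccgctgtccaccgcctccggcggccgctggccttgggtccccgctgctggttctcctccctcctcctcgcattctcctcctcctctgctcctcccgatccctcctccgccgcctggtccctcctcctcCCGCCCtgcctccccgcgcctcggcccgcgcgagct
ERRFI1, chr1:8026310-8026559, minus strand: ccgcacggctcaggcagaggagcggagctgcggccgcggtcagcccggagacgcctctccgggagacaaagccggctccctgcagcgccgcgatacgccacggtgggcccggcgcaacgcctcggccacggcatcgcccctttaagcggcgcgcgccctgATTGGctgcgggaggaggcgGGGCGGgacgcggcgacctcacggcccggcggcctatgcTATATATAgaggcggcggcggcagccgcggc
LRIG3, chr12:58920505-58920754, minus strand: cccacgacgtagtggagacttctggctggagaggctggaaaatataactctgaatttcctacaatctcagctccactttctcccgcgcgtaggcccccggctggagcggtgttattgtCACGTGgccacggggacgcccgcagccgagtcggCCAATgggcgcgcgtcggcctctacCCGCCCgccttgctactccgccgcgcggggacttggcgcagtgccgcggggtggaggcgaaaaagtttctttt
Core motifs and the sites of factors downstream of the ligands were searched on both strands. The GC box was taken as GGGCGG, the E-box as CACGTG, the TATA element as TATATA and the CAAT box as CCAAT. Sites for STAT factors were taken as TTCNNNGAA, those for AP-1 as TGANTCA and those for SMAD proteins as GTCTAGAC. The letters searched for FOXO factors were GTAAACA, and the letters searched for ETS factors were CCGGAAG. The EGFR window holds 2 GC boxes and no TATATA. In the ERRFI1 window 1 GC box and 1 CCAAT on the minus strand stand upstream of 2 overlapping TATATA matches, which begin 31 and 29 bases before the start. The LRIG3 window holds 1 CCAAT, 1 E-box and 1 GC box, and the LRIG1 window, which is not shown, holds 2 CCAAT and 3 GC boxes. Among 34943 RefSeq windows of the same length, 42.55% held a GC box, 32.04% CCAAT, 6.32% the E-box and 3.74% TATATA. STAT, AP-1, SMAD, FOXO and ETS letters, present in 6.56%, 6.59%, 0.18%, 2.98% and 8.48% of all windows, were in none of the 4. These matches describe the letters of the windows, and the absence of a match says nothing of a factor's binding elsewhere.

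Library totals ran from 30.1 to 52.9 M (mega) counts. Levels are given as CPM, counts per mega of the scaled library total, with the standard deviation over the 3 libraries of a group. All 9 epithelial markers examined were tested genes, and their summed level ran from 11420 to 29000 CPM over the 27 libraries. Of 9 markers of other cell types, PTPRC (leukocytes), CDH5 (endothelium), and PDGFRA and LUM (fibroblasts) were at or near 0. Other markers of these cell types were higher. DCN, a fibroblast marker that encodes the matrix proteoglycan decorin, stood at 91.6 ± 5.51 CPM in PBS and 11.3 ± 1.84 CPM with EGF. CD68, a lysosomal protein used as a macrophage marker, stood at 27.2 ± 0.994 CPM in PBS and 46.9 ± 3.07 CPM with OSM+TGFB. PECAM1, an endothelial adhesion molecule, was low but present, at 1.66 ± 0.368 CPM with OSM. PDGFRB, also a fibroblast marker, was at 0.951 ± 0.109 CPM in T0. ESR1, a luminal hormone receptor, was at 2.76 ± 0.655 CPM with OSM. The summed level of these 9 was 31.8 to 64.1 CPM in the groups with EGF and 104 to 152 CPM in the others. In every group most of this sum was DCN and CD68, and its part in the results below was not tested. In bulk RNA, fewer cells of a type cannot be told apart from less RNA per cell. Nothing in the labels says that replicates came from separate cultures, so the p-values measure the spread between these libraries.

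Compared per kilobase of canonical transcript, the 3 receptors were of the same order of abundance in PBS, and EGFR was the most abundant in every group. In PBS, EGFR made up 41.7% ± 2.07 of the summed receptor level, ERBB2 32.2% ± 1.30 and ERBB3 26.1% ± 0.955. With EGF the shares were 68.4% ± 1.89, 24.6% ± 1.25 and 6.98% ± 0.789. With EGF+OSM they were 77.2% ± 1.30, 19.9% ± 1.097 and 2.93% ± 0.337. The ERBB3 share thus ran from 25.3% to 27.2% in the PBS libraries and from 2.59% to 3.26% in the EGF+OSM libraries. TGFB alone left ERBB3 at 21.3% ± 1.12, and T0 stood between PBS and the EGF groups, with EGFR at 53.03% ± 3.24 and ERBB3 at 16.5% ± 2.02. Within a library, ERBB3 counts per ERBB2 count were 0.998 ± 0.0317 in PBS, 0.349 ± 0.0297 with EGF and 0.181 ± 0.0179 with EGF+OSM. The summed CPM of the 3 receptors was 664.5 to 688.5 in PBS, 594 to 670 with EGF and 568 to 605 with EGF+OSM. These shares depend on the transcript lengths used, since the isoforms the authors' counts came from are not known. With the longest coding transcript, the shares of EGFR, ERBB2 and ERBB3 in PBS were 42.4%, 31.1% and 26.5%. With EGF+OSM they were then 77.9%, 19.1% and 2.96%. No test was made of the shares themselves.

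**Figure D1:**
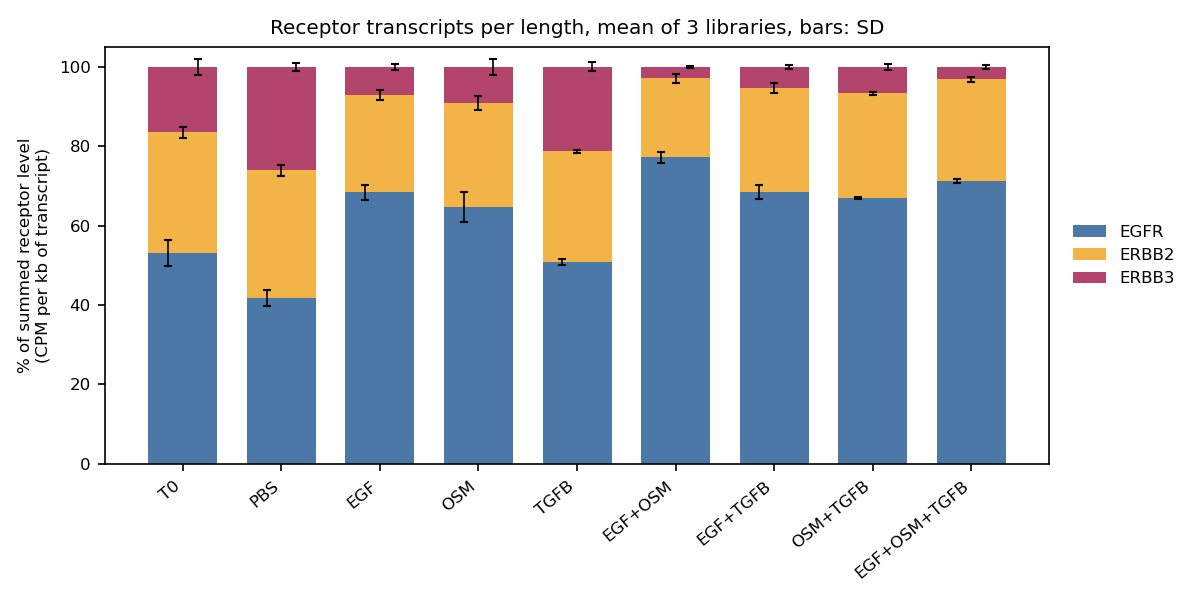
Share of EGFR, ERBB2 and ERBB3 in the summed receptor level per kilobase of transcript (y axis, %) in each of the 9 groups (x axis). Bars are means of 3 libraries and error bars are SD. ERBB3 makes up 26.1% in PBS and 2.93% in EGF+OSM.

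ERBB3 showed the widest range of the 6, 12.7-fold between the highest and the lowest group mean. Its 3 PBS libraries held 135, 146 and 138 CPM, and its EGF libraries 28.2, 35.5 and 26.9 CPM. With OSM the libraries held 43.5, 50.5 and 30.6 CPM, and with EGF+OSM 10.8, 12.7 and 9.53 CPM. No library of these 3 treatments reached the PBS range, and the EGF+OSM libraries were all below those of either ligand alone. The log2 fold change of ERBB3 against PBS was -2.21 ± 0.15 (SE) with EGF (edgeR adjusted p = 3.33e-11), -1.75 ± 0.15 with OSM (edgeR adjusted p = 1.77e-09) and -3.66 ± 0.17 with EGF+OSM (edgeR adjusted p = 2.13e-14). The last is a level 12.6-fold lower than in PBS. TGFB alone left ERBB3 at 125, 137 and 122 CPM, overlapping PBS, with a log2 fold change of -0.13 (95% interval -0.43 to 0.17, edgeR adjusted p = 0.543). In the other combinations ERBB3 was again low. EGF+TGFB libraries held 24.7, 27.6 and 23.0 CPM, OSM+TGFB libraries 34.0, 36.6 and 29.4 CPM, and EGF+OSM+TGFB libraries 13.3, 16.4 and 11.3 CPM. In the order of group means, EGF+OSM and EGF+OSM+TGFB overlapped at the bottom, EGF+TGFB, EGF, OSM+TGFB and OSM overlapped each with its neighbour, and T0 (89.1, 91.5 and 73.6 CPM) stood apart below TGFB and PBS, which overlapped. OSM replicate 3 was the lowest of its group, and without it the OSM value was -1.57 (edgeR adjusted p = 4.54e-09).

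**Figure D2:**
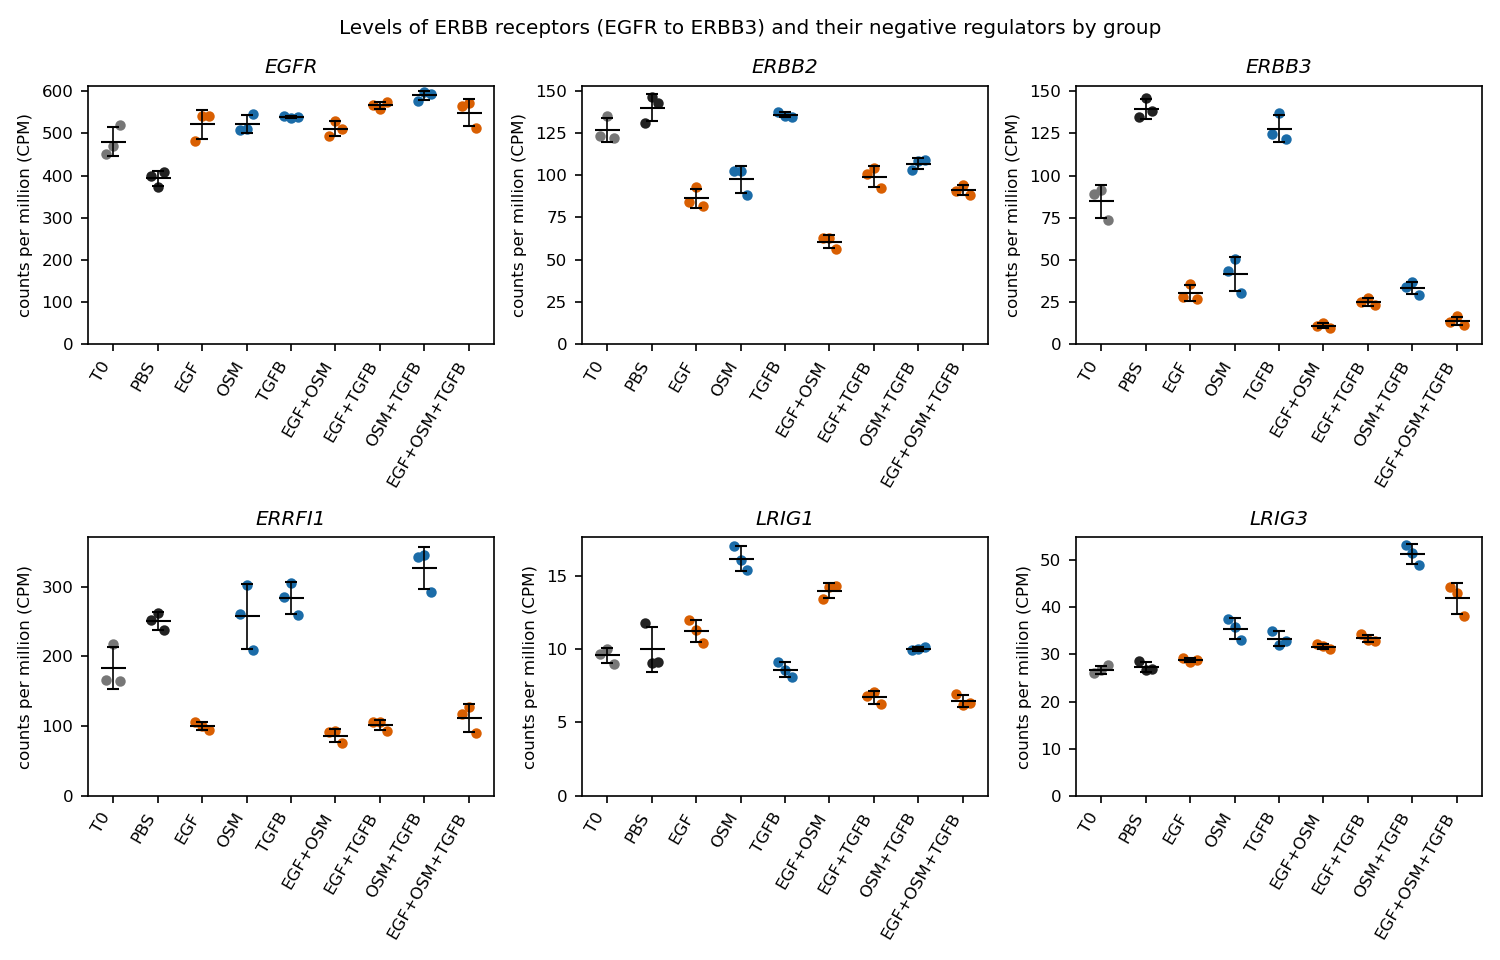
Level of each of the 6 genes (y axis, CPM, from 0) in the 9 groups (x axis). Points are libraries, bars the mean and SD of 3 libraries, and orange marks the groups with EGF. ERBB3 is highest in PBS (139.6 CPM) and lowest in EGF+OSM (11.02 CPM), and ERRFI1 is low in all 4 groups with EGF.

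ERBB2, the partner without a ligand, moved in the same groups as ERBB3 but by less, 2.31-fold between the extreme means. PBS libraries held 131, 146 and 143 CPM, EGF libraries 84.3, 92.8 and 81.8 CPM, and OSM libraries 102, 102 and 88.2 CPM. The EGF+OSM libraries, at 62.8, 63.1 and 56.3 CPM, were below every other library of the study. ERBB2 fell in all 3, with log2 fold changes against PBS of -0.70 ± 0.06 with EGF (edgeR adjusted p = 2.84e-10), -0.52 ± 0.06 with OSM (edgeR adjusted p = 7.94e-08) and -1.21 ± 0.06 with EGF+OSM (edgeR adjusted p = 6.14e-15). TGFB libraries lay at 138, 135 and 135 CPM within the PBS range, a log2 fold change of -0.04 (95% interval -0.17 to 0.09, edgeR adjusted p = 0.636). In the other groups with TGFB, ERBB2 was lower than in PBS. It held 101, 104 and 92.4 CPM with EGF+TGFB, 103, 108 and 109 CPM with OSM+TGFB, and 90.9, 94.5 and 88.2 CPM with EGF+OSM+TGFB. The log2 fold changes against PBS were -0.50, -0.39 and -0.62, each called by edgeR (adjusted p between 2.33e-09 and 6.18e-06). The means of EGF, EGF+OSM+TGFB, OSM, EGF+TGFB and OSM+TGFB formed a run in which each group overlapped the next.

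EGFR, the receptor of EGF itself, moved the other way: it was higher than in PBS with every ligand and combination. PBS libraries held 399, 374 and 407 CPM (EGFR), below all 24 other libraries. EGF libraries held 482, 542 and 540.4 CPM, OSM libraries 509, 509.7 and 547 CPM, and TGFB libraries 542, 538 and 539.6 CPM. The rise was 0.41 ± 0.05 with EGF, 0.41 ± 0.05 with OSM and 0.46 ± 0.05 with TGFB on the log2 scale (edgeR adjusted p = 2.55e-07, 3.62e-07 and 2.21e-07), so the single ligands gave nearly the same value. Combinations added little. EGF+OSM libraries held 494, 529.5 and 511 CPM, EGF+TGFB libraries 568, 557 and 574 CPM, OSM+TGFB libraries 578, 599 and 594 CPM, and EGF+OSM+TGFB libraries 564, 571 and 513 CPM. The rises over PBS in these combinations ran from 0.38 (EGF+OSM, edgeR adjusted p = 6.45e-07) to 0.59 (OSM+TGFB, edgeR adjusted p = 5.51e-10). From T0 (451, 471 and 519 CPM) up to EGF+TGFB each group overlapped the next in the order of means, and OSM+TGFB stood just above. The whole range, 1.5-fold, was the narrowest of the 6.

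ERRFI1, the inhibitor of the active EGFR kinase, separated the groups with EGF from those without. It held 252, 262 and 237 CPM in PBS and 106, 101 and 94.6 CPM with EGF, a log2 fold change of -1.32 ± 0.14 (edgeR adjusted p = 1.90e-08). The other groups with EGF were as low: 91.2, 92.9 and 74.9 CPM with EGF+OSM, 106, 105.4 and 92.9 CPM with EGF+TGFB, and 117, 128 and 89.9 CPM with EGF+OSM+TGFB. The highest of these 12 libraries was below the lowest of the 15 others, which was a T0 library at 164 CPM. OSM libraries held 261, 303 and 209.6 CPM and TGFB libraries 285, 305 and 259 CPM, both overlapping PBS. Neither difference was called, with log2 fold changes of 0.04 (95% interval -0.24 to 0.32, edgeR adjusted p = 0.805) and 0.18 (95% interval -0.10 to 0.46, edgeR adjusted p = 0.336). The TGFB value was called in a fit on the TGFB and PBS groups alone (edgeR adjusted p = 0.0294). OSM+TGFB libraries were all above PBS at 342, 345 and 292 CPM, a rise of 0.38 ± 0.13 (edgeR adjusted p = 0.0164). That call was lost with upper-quartile scaling (edgeR adjusted p = 0.059) and without OSM+TGFB replicate 1 or 2 or PBS replicate 3. Per EGFR count within a library, ERRFI1 stood at 0.638 ± 0.0594 in PBS and 0.194 ± 0.0239 with EGF.

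LRIG1, the membrane inhibitor, rose with OSM. In PBS it was the least abundant of the 6 per transcript length, at 1.86 CPM per kilobase against 6.77 for LRIG3 and 80.9 for ERRFI1. With EGF+OSM, ERBB3 was below it, at 1.96 CPM per kilobase against 2.60 for LRIG1. PBS libraries held 11.8, 9.02 and 9.14 CPM, OSM libraries 17.1, 16.0 and 15.4 CPM, and EGF+OSM libraries 13.4, 14.2 and 14.3 CPM. All OSM and EGF+OSM libraries were above all PBS libraries, by 0.70 ± 0.09 (edgeR adjusted p = 1.45e-07) and 0.49 ± 0.09 (edgeR adjusted p = 1.94e-05). With TGFB present this was not so. OSM+TGFB libraries held 9.91, 9.97 and 10.2 CPM, a log2 fold change of 0.01 (95% interval -0.18 to 0.19, edgeR adjusted p = 0.944), and TGFB libraries 9.11, 8.57 and 8.11 CPM, one of -0.21 (95% interval -0.40 to -0.03, edgeR adjusted p = 0.0714). LRIG1 was lowest where EGF and TGFB were given together, at 6.79, 7.09 and 6.24 CPM with EGF+TGFB and 6.92, 6.17 and 6.30 CPM with EGF+OSM+TGFB. These 6 libraries lay below all others, with log2 fold changes of -0.57 ± 0.09 (edgeR adjusted p = 5.38e-06) and -0.62 ± 0.09 (edgeR adjusted p = 1.60e-06) against PBS. EGF alone gave 11.95, 11.3 and 10.4 CPM, a log2 fold change of 0.17 (95% interval -0.01 to 0.36, edgeR adjusted p = 0.0809). PBS replicate 1 was the highest of its group, and without it the EGF value was 0.31 (edgeR adjusted p = 0.00223), while without PBS replicate 2 it was 0.11 (edgeR adjusted p = 0.331). The EGF value was also called without EGF replicate 3 and with the replicate number as a block (edgeR adjusted p = 0.0446 and 0.0489). The TGFB value was called without PBS replicate 2 or 3, with a value of -0.28 at its largest, and with upper-quartile scaling. It was called with the replicate block too (edgeR adjusted p = 0.0433), but it was -0.08 without PBS replicate 1 (edgeR adjusted p = 0.537).

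LRIG3, the paralogue, followed another order than LRIG1 and was highest in OSM+TGFB, as were the group means of EGFR and ERRFI1. PBS libraries held 28.6, 26.6 and 26.9 CPM, OSM libraries 37.5, 35.9 and 33.1 CPM, and TGFB libraries 35.05, 31.96 and 32.9 CPM. OSM+TGFB libraries held 53.3, 51.6 and 49.0 CPM, above every other library. The rises over PBS were 0.37 ± 0.06 with OSM (edgeR adjusted p = 2.71e-06), 0.28 ± 0.06 with TGFB (edgeR adjusted p = 3.14e-04) and 0.91 ± 0.06 with OSM+TGFB (edgeR adjusted p = 2.26e-13). EGF libraries, at 29.3, 28.4 and 28.8 CPM, overlapped PBS, with a log2 fold change of 0.07 (95% interval -0.04 to 0.19, edgeR adjusted p = 0.242). In the remaining groups LRIG3 was higher than in PBS. EGF+OSM libraries held 32.1, 31.7 and 31.1 CPM, EGF+TGFB libraries 34.3, 33.2 and 32.9 CPM, and EGF+OSM+TGFB libraries 44.3, 43.1 and 38.2 CPM. The log2 rises were 0.21, 0.29 and 0.61 (edgeR adjusted p = 0.00188, 6.88e-05 and 3.48e-10), of which the first was lost with upper-quartile scaling (0.12, edgeR adjusted p = 0.0641). No LRIG3 library was below 25.97 CPM, a T0 library.

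Counted by treatment, the receptors showed 1 pattern in every treatment but TGFB alone: EGFR higher, ERBB2 and ERBB3 lower. Among the 6 genes, edgeR called 4 with EGF against PBS, where 73.5% of all tested genes were called. With OSM it called 5, against 63.4% of all genes, and with TGFB 2 (EGFR and LRIG3), against 35.6%. With EGF+OSM all 6 were called, against 77.2% of all genes. With EGF+TGFB all 6 were called, against 73.7%, with OSM+TGFB 5, against 66.0%, and with EGF+OSM+TGFB all 6, against 74.4%. With so many genes called in all, these counts say nothing particular about the 6 as a set. By size of change, ERBB3 ranked high among all tested genes: a larger absolute log2 fold change was seen for 8.8% of them after EGF, for 11.2% after OSM and for 5.63% after both. For ERRFI1 the share was 20.8% with EGF and 94.2% with OSM, and for EGFR 62.9% with EGF. All 7 comparisons use the same 3 PBS libraries and are therefore not independent of each other.

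**Figure D3:**
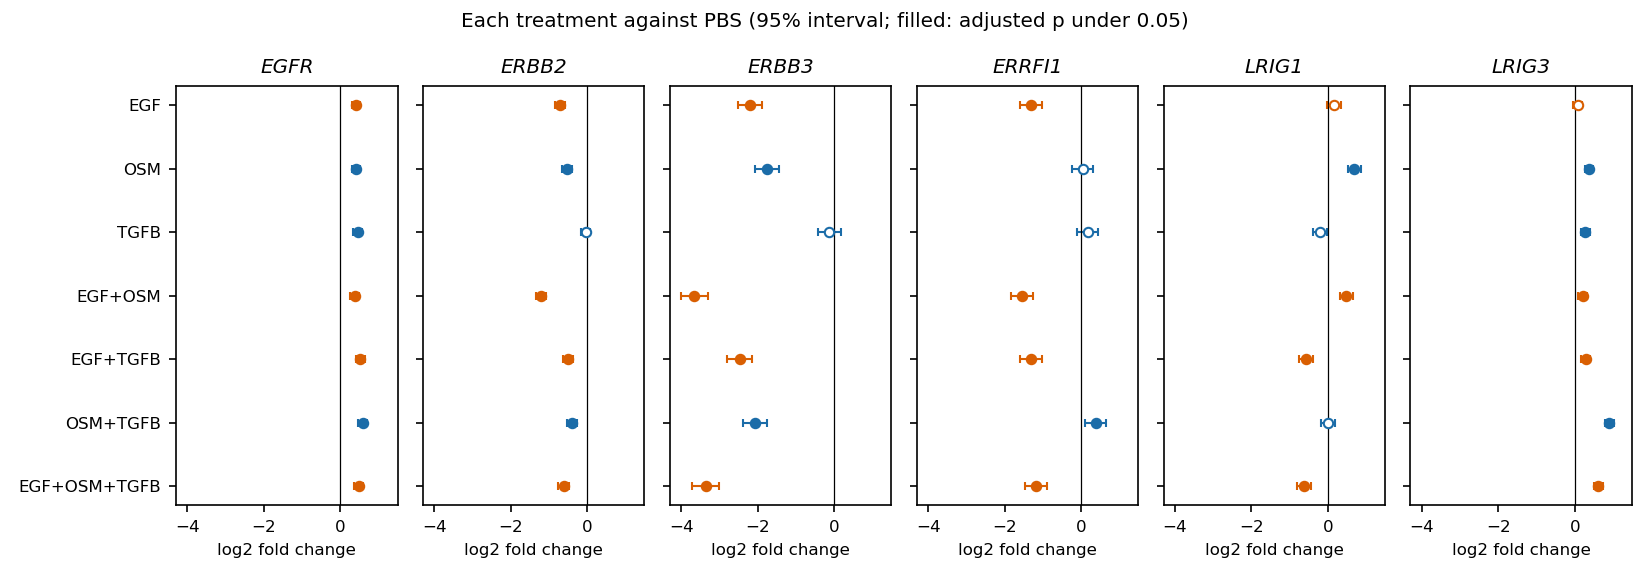
Log2 fold change against PBS (x axis) of the 6 genes with each of 7 treatments (y axis), with 95% intervals. Filled points have an edgeR adjusted p under 0.05, and orange marks treatments with EGF. ERBB3 lies between -1.75 and -3.66 in 6 of 7 treatments and EGFR between 0.38 and 0.59 in all 7.

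Adding EGF to cells that also received other ligands tests the ERBB ligand against each background. ERRFI1 fell each time, with log2 fold changes of -1.32 over PBS, -1.58 over OSM, -1.48 over TGFB and -1.55 over OSM+TGFB and an edgeR adjusted p of at most 1.90e-08 in each. ERBB3 fell over every background too, with -2.21 over PBS, -1.91 over OSM, -2.34 over TGFB and -1.29 over OSM+TGFB (edgeR adjusted p of at most 1.69e-06). The difference between the fall over OSM+TGFB and that over PBS was not tested. ERBB2 fell as well, with -0.68 over OSM (edgeR adjusted p = 1.85e-09), -0.45 over TGFB (edgeR adjusted p = 6.35e-07) and -0.23 over OSM+TGFB (edgeR adjusted p = 0.00396). EGFR did not follow: its log2 fold changes on adding EGF were -0.03 (95% interval -0.14 to 0.08) over OSM, 0.07 (-0.04 to 0.18) over TGFB and -0.10 (-0.22 to 0.01) over OSM+TGFB, none called. The values for LRIG1 were -0.21 over OSM (edgeR adjusted p = 0.0388), -0.35 over TGFB (edgeR adjusted p = 0.00168) and -0.63 over OSM+TGFB (edgeR adjusted p = 4.46e-06). The values for LRIG3 were -0.17 over OSM (edgeR adjusted p = 0.014) and -0.29 over OSM+TGFB (edgeR adjusted p = 1.02e-04), and the gene was not called over TGFB (0.01, 95% interval -0.11 to 0.12). This made 5 of 6 genes called over OSM (61.7% of all genes), 4 over TGFB (69.4%) and 5 over OSM+TGFB (52.2%). The LRIG1 call over OSM was lost with DESeq2 (adjusted p = 0.0929), without the filter on low counts and without any of the EGF+OSM libraries or OSM replicate 1 or 2, and the LRIG3 call over OSM was lost without that filter, EGF+OSM replicate 3 or OSM replicate 1.

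**Figure D4:**
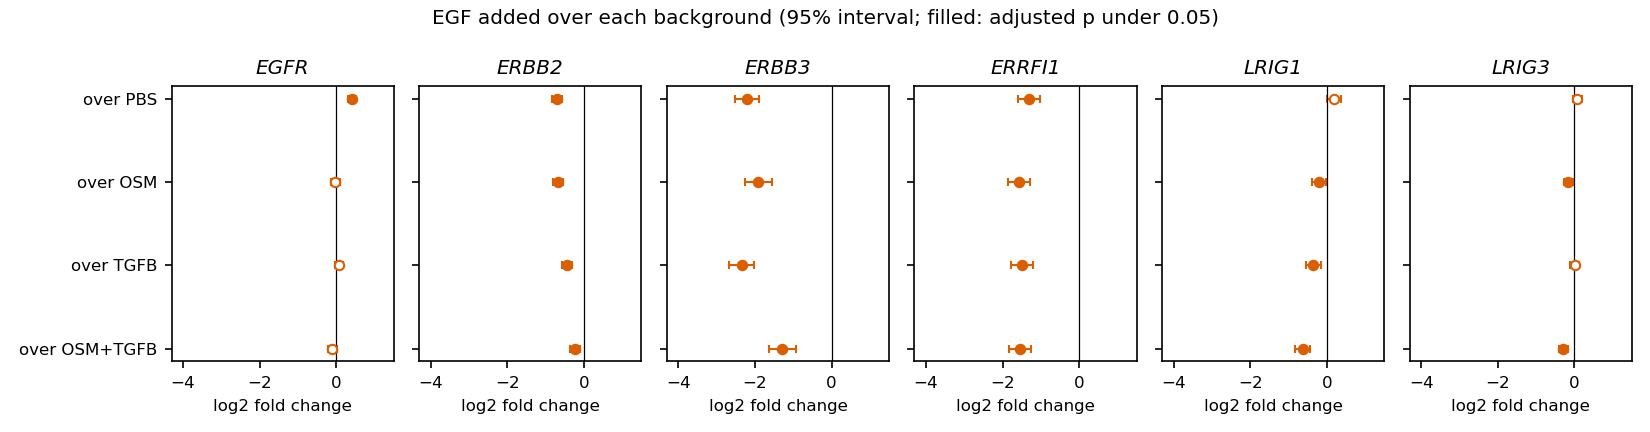
Log2 fold change on adding EGF (x axis) to cells given PBS, OSM, TGFB or OSM+TGFB (y axis), with 95% intervals, for the 6 genes. Filled points have an edgeR adjusted p under 0.05. The ERRFI1 points lie between -1.32 and -1.58, and the EGFR point is above 0 and filled over PBS alone.

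Set directly against OSM, EGF gave lower levels of the 3 inhibitors, with log2 fold changes of -1.36 ± 0.14 for ERRFI1 (edgeR adjusted p = 3.33e-08), -0.52 ± 0.09 for LRIG1 (edgeR adjusted p = 1.32e-05) and -0.30 ± 0.06 for LRIG3 (edgeR adjusted p = 7.01e-05). Of the receptors, ERBB3 and ERBB2 were also lower with EGF. The value was -0.46 ± 0.15 for ERBB3 (edgeR adjusted p = 0.0145) and -0.18 ± 0.06 for ERBB2 (edgeR adjusted p = 0.0198), while EGFR was not called (95% interval -0.11 to 0.11, edgeR adjusted p = 0.986). Of the 6 genes 5 were called, against 56.8% of all genes. The ERBB3 call was lost in a fit on these 2 groups alone (edgeR adjusted p = 0.0635) and without EGF replicate 1 or 3 or OSM replicate 2 (up to 0.134), the last leaving a value of -0.29. The ERBB2 call was lost in that fit too, with DESeq2 (adjusted p = 0.0807), without the filter on low counts and without EGF replicate 1 or 3 or OSM replicate 1 or 2.

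The 24 h in PBS after starvation moved 3 of the 6 genes, where 35.1% of all genes were called between PBS and T0. EGFR fell by 0.29 ± 0.05 from T0 to PBS (edgeR adjusted p = 1.64e-04). ERBB3 rose by 0.72 ± 0.15 (edgeR adjusted p = 5.61e-04), with no overlap between its T0 and PBS libraries. ERRFI1 rose by 0.46 ± 0.13 (edgeR adjusted p = 0.0114), from T0 libraries at 166, 217 and 164 CPM, a call lost without T0 replicate 1 or 3 (edgeR adjusted p up to 0.0631). ERBB2 (T0 libraries at 123, 135 and 122 CPM), LRIG1 (9.69, 9.99 and 9.001 CPM) and LRIG3 (25.97, 26.7 and 27.7 CPM) were not called between these groups, with log2 fold changes of 0.14, 0.06 and 0.03. The ERBB2 value was 0.19 and called without PBS replicate 1 (edgeR adjusted p = 0.0381) or T0 replicate 2 (edgeR adjusted p = 0.0409). With the replicate number as a block in the fit it was 0.14 and called (edgeR adjusted p = 0.0222). With EGF against T0, a comparison that uses no PBS library, 4 genes were called, where 69.5% of all genes were. The log2 fold changes were -1.49 ± 0.15 for ERBB3 (edgeR adjusted p = 2.13e-08), -0.86 ± 0.14 for ERRFI1 (edgeR adjusted p = 9.17e-06), -0.56 ± 0.06 for ERBB2 (edgeR adjusted p = 2.24e-08) and 0.23 ± 0.09 for LRIG1 (edgeR adjusted p = 0.0225). EGFR differed from T0 by 0.12 (95% interval 0.01 to 0.23, edgeR adjusted p = 0.0574). LRIG3 differed by 0.11 (95% interval -0.01 to 0.23, edgeR adjusted p = 0.0949). The LRIG3 value was called with DESeq2 (adjusted p = 0.0383) and in a fit on the EGF and T0 groups alone (edgeR adjusted p = 0.0491). The LRIG1 call was lost without the filter on low counts, with upper-quartile scaling and without EGF replicate 1 or T0 replicate 3. The EGFR value was called with DESeq2 and without EGF replicate 1 or T0 replicate 3. It was also called with the replicate number as a block in the fit (edgeR adjusted p = 0.0398).

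Whether a pair of ligands gave the sum of their separate log2 fold changes was tested as the departure of the pair from that sum. For ERBB3 the pair EGF+OSM gave -3.66 where the sum was -3.95, a departure of 0.29 (95% interval -0.17 to 0.76, edgeR adjusted p = 0.331). For ERRFI1 it was -0.26 (95% interval -0.66 to 0.14, edgeR adjusted p = 0.308). Neither gene was called with any of the 3 pairs by this test. Their intervals still hold departures of the size called for the other genes. With the replicate number as a block in the fit, both were called for EGF+OSM. The departures were then 0.31 for ERBB3 and -0.25 for ERRFI1 (edgeR adjusted p = 0.0379 and 0.0462). EGFR fell short of the sum with all 3 pairs, with a departure of -0.43 ± 0.08 for EGF+OSM (pair 0.38, sum 0.81, edgeR adjusted p = 6.00e-05). LRIG1 was also below the sum with all 3, the furthest with EGF+TGFB, where the pair gave -0.57 and the sum -0.04. LRIG3 exceeded the sum with OSM+TGFB (pair 0.91, sum 0.66) and fell short of it with EGF+OSM (pair 0.21, sum 0.45). Of the 6 genes 3 departed with the pair EGF+OSM, where 38.7% of all genes did, 3 with EGF+TGFB (29.8%) and 3 with OSM+TGFB (23.3%).

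The rest of the ERBB pathway was described by lists of ligands, adaptors, and genes of receptor ubiquitination, trafficking and dephosphorylation. With EGF against PBS, 34.9% of all tested genes were called higher and 38.6% lower, with a median log2 fold change of -0.07. Of 10 tested ligands 5 rose and 2 fell (median 0.25). Amphiregulin (AREG), which binds EGFR, rose by 4.70 ± 0.26 from 10.8 to 279.7 CPM (edgeR adjusted p = 1.66e-12). NRG1, a ligand of ERBB3, rose by 3.38 ± 0.23 from 0.640 to 6.61 CPM (edgeR adjusted p = 1.27e-12). It was at 14.8 ± 1.53 CPM with EGF+OSM and at 15.3 ± 1.51 CPM with EGF+OSM+TGFB. Epiregulin (EREG), a ligand of EGFR, rose by 1.74 and NRG4, a neuregulin, fell by 1.15. All 12 adaptors were called, 4 higher and 8 lower (median -0.35). PIK3R3, a regulatory subunit of PI 3-kinase, fell by 1.68 from 60.8 to 19.0 CPM (edgeR adjusted p = 1.32e-14), and the docking protein GAB2 by 1.08. In the third list 6 of 12 rose and 4 fell (median 0.06). CBLB, a ubiquitin ligase that acts on ERBB receptors, fell by 2.09 ± 0.11 from 49.8 to 11.7 CPM (edgeR adjusted p = 4.65e-14) and stood at 7.93 ± 0.860 CPM with EGF+OSM. SH3KBP1, an endocytic adaptor that binds CBL proteins, rose by 1.51 and the phosphatase PTPN1 by 1.11. With OSM, where 33.5% of all genes were called higher and 29.8% lower, 4 ligands rose and 5 fell, 5 adaptors rose and 5 fell, and in the third list 5 rose and 3 fell. With TGFB, where 19.9% were called higher and 15.8% lower, the same counts were 1 and 2, 5 and 1, and 4 and 2. Nothing is read from these counts about the pathway as a set.

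The remaining receptor of the family, ERBB4, was barely detected: 0 counts in 17 of 27 libraries, at most 6 in any, and 22 in total. LRIG2, the remaining LRIG gene, is a membrane protein of the same family. It stood at 21.7 ± 1.57 CPM in PBS and 11.96 ± 0.467 CPM with EGF, a log2 fold change of -0.86 ± 0.08 (edgeR adjusted p = 9.35e-10). LRIG2 was lower than in PBS in all 7 treatments, the least with OSM+TGFB (-0.19, edgeR adjusted p = 0.0404), where LRIG3 was highest. The 3 LRIG genes thus gave 3 different orders of groups.

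Over the 27 libraries the protein-coding genes most like each of the 6 were ranked by Pearson correlation of log2 CPM among 10431 genes with a mean of at least 5 CPM. The libraries share treatments, so these are descriptions of the same 9 groups. Nearest to ERBB3 were FXYD3, a regulator of the sodium pump (r = 0.988, 653 CPM in PBS and 143 with EGF), SLC44A2, a choline transporter-like protein (r = 0.986), and CLDN7, a claudin of tight junctions (r = 0.985). Nearest to ERBB2 were UBE2H, a ubiquitin-conjugating enzyme (r = 0.978), the collagen receptor kinase DDR1 (r = 0.978, 823 CPM in PBS and 219 with EGF) and the interleukin-17 receptor subunit IL17RC (r = 0.976). EGFR was closest to VCAN, the proteoglycan versican (r = 0.925, 12.3 CPM in PBS and 101 with EGF), the calcium-binding protein gene SRI (r = 0.912) and PCED1B (r = 0.901). For ERRFI1 they were the lysosomal glucosidase GAA (r = 0.980, 105.2 CPM in PBS and 25.6 with EGF), the Wnt pathway transcription factor TCF7L2 (r = 0.969) and the kinase SIK3 (r = 0.969). For LRIG1 they were the inositol transporter SLC5A3 (r = 0.911, 29.6 CPM in PBS and 75.2 with OSM), CLNS1A (r = 0.895) and the methionine adenosyltransferase MAT2A (r = 0.893). LRIG3 was closest to COL17A1, a collagen of hemidesmosomes (r = 0.9748, 1019 CPM in PBS and 1746 with OSM), SETBP1 (r = 0.956) and CACHD1 (r = 0.953). The closest genes of the 6 did not overlap.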

How the data were processed

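Per the submitters' processing notes, reads were handled with Trim Galore 0.4.3, cutadapt 1.10, FastQC 0.11.5, kallisto 0.46.2 and R 3.5.0, with the builds GRCh38.p5 and hg38. How transcript estimates were summed to genes, and the annotation, are not given in the sources used here. Per the labels, a stranded mRNA kit was used. The values the authors deposited are whole numbers per gene and were treated as estimated counts from kallisto, rounded before deposition. Rounding them again changed nothing.

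The table held 40487 rows. Rows sharing a symbol were summed, which gave 36536 features, and 0.324% of the counts lay in rows without a symbol. Genes were filtered by filterByExpr, leaving 15575, and libraries were scaled by TMM (factors 0.867 to 1.12). edgeR 4.0.16 in R 4.3.3 was fitted to all 27 libraries with a mean per group (18 residual degrees of freedom, biological coefficient of variation 7.83%), using quasi-likelihood tests and Benjamini-Hochberg adjustment over all tested genes. A call is an adjusted p under 0.05. SE is the log2 fold change divided by the root of its F statistic. The fit was run on simulated counts in which few genes changed, so that run does not test the scaling where most genes are called. Totals of 30.1 to 52.9 M (mega) counts keep counting error small for abundant genes, but not for every gene. LRIG1 held 177 to 723 counts per library, so its counting error is not small beside its replicate spread. Chi-square divided by its degrees of freedom was 6.63 to 32.52 between replicate libraries, so none was a duplicate.

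Named from each of the 3 pathway lists were up to 4 genes with the largest absolute log2 fold change of at least 1 among those called with EGF against PBS, plus ERBB4 and LRIG2, and the 3 most correlated genes per member (log2 CPM, prior count 2). The 6 genes and the lists were chosen with earlier results of these data known. Alternatives were DESeq2 1.42.0, upper-quartile scaling, no filter, rows unsummed, only the groups compared, the replicate number as a block, a threshold of 0.01, the longest transcript and leaving out each library in turn.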

Additional observations from a re-analysis of the deposited data

Results flagged for a closer look

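A test of the difference of differences found that the effect of 1 ligand on EGFR, ERBB2, LRIG1 or LRIG3 differed with a second ligand present in 9 cases, given here as the log2 fold change of the pair minus the sum of the single ligands, with edgeR's adjusted p. For EGF and OSM the departures were -0.43 for EGFR (adjusted p = 6.00e-05), -0.38 for LRIG1 (adjusted p = 0.016) and -0.24 for LRIG3 (adjusted p = 0.02). For EGF and TGFB they were -0.34 for EGFR (edgeR adjusted p = 0.00164), 0.25 for ERBB2 (edgeR adjusted p = 0.0395) and -0.53 for LRIG1 (edgeR adjusted p = 0.003). For OSM and TGFB they were -0.28 for EGFR (edgeR adjusted p = 0.00972), -0.48 for LRIG1 (edgeR adjusted p = 0.00727) and 0.25 for LRIG3 (edgeR adjusted p = 0.0249). All use the same 3 PBS libraries, so the 9 values are not independent.

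The 3 EGFR departures and the LRIG1 departures with TGFB stayed under an adjusted p of 0.05 in edgeR without any of the libraries involved, the highest being 0.035 for EGFR and 0.0279 for LRIG1. The ERBB2 departure did not: in edgeR fits without EGF replicate 1 or 3, EGF+TGFB replicate 1 or 2, PBS replicate 2 or 3 or any TGFB library the adjusted p was 0.0556 to 0.122, and it was 0.0983 in a fit on those groups alone. The LRIG1 departure for EGF and OSM was lost in edgeR without PBS replicate 2 or 3 or without the filter on low counts (adjusted p up to 0.0574). The LRIG3 departure for EGF and OSM was lost in edgeR without OSM replicate 1 or PBS replicate 2, with upper-quartile scaling (adjusted p up to 0.0644 among these) and without the filter on low counts (adjusted p = 0.088). That for OSM and TGFB was lost without OSM replicate 3, OSM+TGFB replicate 1, PBS replicate 1 or TGFB replicate 2 or 3 (edgeR adjusted p up to 0.0816), and in a fit on its groups alone (edgeR adjusted p = 0.0574).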

How the results depend on the processing

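Of 96 log2 fold changes of the 6 genes 69 were called. Over 951 alternative values of these none changed direction and 66 lost the call. The 951 include the main values held to a threshold of 0.01, which could not change direction. That threshold accounts for 11 of the lost calls, and the cause of the others was not tested. Values that changed sign were all uncalled and near 0. For EGFR, EGF against OSM was 0.0388 with DESeq2, 0.0205 without the filter, 0.002 with rows as deposited and -0.0286 to 0.0536 leaving out a library, and EGF+OSM against OSM was 0.003 with DESeq2 and -0.0529 to 0.008 leaving out a library. For ERBB2 the departure of EGF and OSM was -0.0065 on its groups alone and -0.0544 to 0.0692 leaving out a library. ERRFI1 with OSM was -0.0151 with upper-quartile scaling and -0.0898 to 0.1709 leaving out a library. LRIG1 with OSM+TGFB was -0.0128 with DESeq2, -0.0127 on its groups alone, -0.0099 without the filter, -0.0806 with upper-quartile scaling and -0.0601 to 0.1422 leaving out a library, and its PBS against T0 value -0.0748 to 0.1269. LRIG3 with EGF+TGFB against TGFB was -7e-04 on its groups alone, -0.0548 with upper-quartile scaling and -0.0222 to 0.0643 leaving out a library, and its departure of EGF and TGFB -0.1016 to 0.0014.

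The number of the 6 genes called for the departure of EGF and OSM was 1 at an adjusted p under 0.01, 1 without the filter, 5 with the replicate block and 1 to 3 leaving out a library. For EGF against OSM it was 3 at 0.01, 3 on these groups alone and 3 to 5 leaving out a library, and for EGF+OSM against OSM 3 at 0.01, 3 without the filter and 3 to 5. At 0.01, all genes called for EGF and TGFB fell from 4647 to 3002, and for OSM and TGFB from 3629 to 2153. Upper-quartile scaling or DESeq2 moved no share of higher calls by over 10 percentage points.

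The labels number replicates alike in every group without saying that a number marks a shared batch. Of 108 same-numbered pairs 23 correlated over 0.1. The median was 0.057, against -0.035 for pairs with different numbers, and 26 of 27 libraries correlated best with their own number. The numbers thus go with some shared variation, which the main fit does not model. The replicate block gained 6 calls and lost none, among them ERBB3 and ERRFI1 for the departure of EGF and OSM (edgeR adjusted p = 0.0379 and 0.0462). EGFR was gained for EGF against T0 and ERBB2 for PBS against T0 (edgeR adjusted p = 0.0398 and 0.0222). LRIG1 was gained for EGF and for TGFB against PBS (edgeR adjusted p = 0.0489 and 0.0433).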
